A study of Mus musculus with 6 samples.

Results

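The genes described here are the receptor subunits, the transducer and target genes through which the cytokine LIF acts on mouse embryonic stem cells. They comprise the receptor genes Lifr, Il6st and Osmr, the transducer gene Stat3, the feedback inhibitor gene Socs3, the target genes Junb, Bcl3 and Gbx2, and the kinase genes Pim1 and Pim3. Non-control probes were assigned to these genes through the RefSeq accession printed for each probe, without reference to measured values. All 10 genes were on the array, with 13 probes and 22 spots, out of 20667 genes with a symbol and 55681 probes. RNA levels were compared between J1 cells kept for 24 h with 3 µM SB431542 (3 arrays) and J1 cells kept for 24 h with its solvent DMSO (3 arrays). SB431542 is a small-molecule kinase inhibitor that blocks ALK5 and its relatives ALK4 and ALK7, the receptors behind TGF-beta, activin and Nodal signalling. J1 is an embryonic stem cell line of strain 129S4/SvJae, adapted to grow on gelatin. Both groups were kept in medium with 15% Knockout Serum Replacement and LIF at 1000 U/mL, so no group without LIF enters the comparison. The measurements are of RNA and do not show the phosphorylation state of STAT3.

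LIF binds the receptor chain LIFR, which then pairs with the shared signalling chain gp130, encoded by Il6st. Janus kinases attached to these chains phosphorylate STAT3, which enters the nucleus and binds DNA at paired TTC and GAA half-sites. Its targets include Socs3, whose protein blocks the receptor and its kinases in a negative feedback loop, and genes that support self-renewal of mouse embryonic stem cells.

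The promoter windows are shown for Socs3, the only one of the 10 genes whose window held a paired STAT half-site, and for Pim1 and Pim3, which both fell. The windows come from RefSeq on build GRCm38.p6, run 5′ to 3′ on the gene's strand, and hold the 250 bases before and 50 bases from an annotated start, which gave 12 windows for the 10 genes. Pim1 has 2 annotated starts. The windows lie at chr11:117969317-117969616 (- strand) for Socs3, chr17:29490535-29490834 (+ strand) and chr17:29492835-29493134 (+ strand) for Pim1, and chr15:88861944-88862243 (+ strand) for Pim3. Capitals mark TTCNNNGAA in Socs3 and CAGAC, a letter sequence bound by SMAD proteins, in Pim1, each searched on both strands (the CAGAC matches in Pim1 read GTCTG on the strand shown). Pim3 held neither.
Socs3: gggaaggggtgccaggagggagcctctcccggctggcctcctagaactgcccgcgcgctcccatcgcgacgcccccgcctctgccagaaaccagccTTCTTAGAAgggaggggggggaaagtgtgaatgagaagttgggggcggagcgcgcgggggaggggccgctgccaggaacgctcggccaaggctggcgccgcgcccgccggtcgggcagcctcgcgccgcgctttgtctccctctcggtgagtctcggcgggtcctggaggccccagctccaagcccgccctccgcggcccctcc
Pim1, start 1: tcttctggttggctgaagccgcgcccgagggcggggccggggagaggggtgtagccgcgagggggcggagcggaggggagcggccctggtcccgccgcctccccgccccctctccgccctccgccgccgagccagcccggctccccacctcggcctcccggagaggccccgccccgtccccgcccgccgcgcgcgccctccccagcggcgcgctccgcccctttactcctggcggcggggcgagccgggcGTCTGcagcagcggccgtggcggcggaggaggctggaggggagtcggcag
Pim1, start 2: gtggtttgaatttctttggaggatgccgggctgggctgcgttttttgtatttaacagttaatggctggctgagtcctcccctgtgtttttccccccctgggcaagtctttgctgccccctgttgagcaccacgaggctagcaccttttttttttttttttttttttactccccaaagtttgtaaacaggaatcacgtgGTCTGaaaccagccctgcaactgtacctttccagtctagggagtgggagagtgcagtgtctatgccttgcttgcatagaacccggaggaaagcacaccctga
Pim3: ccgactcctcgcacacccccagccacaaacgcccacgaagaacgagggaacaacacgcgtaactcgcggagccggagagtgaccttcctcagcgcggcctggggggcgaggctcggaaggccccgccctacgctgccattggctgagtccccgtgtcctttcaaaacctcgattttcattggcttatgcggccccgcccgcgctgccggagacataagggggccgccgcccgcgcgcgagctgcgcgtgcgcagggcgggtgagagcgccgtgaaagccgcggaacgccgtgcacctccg
The Socs3 match, TTCTTAGAA, fills bases 97 to 105 of the window. TTCNNNGAA occurred in 1 of the 12 windows, against 8.3% of all 32851 promoter windows and 12.73% of the 55 windows of other LIF pathway genes. CAGAC occurred in 6 of the 12 windows, from Lifr, Bcl3, Osmr and Pim1, against 49.59% of all windows. The full palindrome GTCTAGAC was in 0 of the 12 and in 0.21% of all windows. The 2 motifs TTCNNNGAA and GTCTAGAC read the same on both strands. A match in these letters is a description, and the windows leave out sites farther from the start.

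Each value below is the log2 of the processed signal relative to the array's 75th percentile, so that 0 is the level of the probe at that percentile. Between 63.9% and 66.2% of non-control spots were well above background on each array, and 0 were saturated. Across features, arrays correlated at 0.995 to 0.997 within SB431542 and at 0.997 to 0.998 within DMSO. The median SD over features was 0.12 in SB431542 and 0.07 in DMSO. SB431542 replicate 3 lay alone on slide 2 and was scanned separately, while the other 5 arrays shared slide 1. The fit on slide 1 alone is therefore the fit without that array. All 7 pluripotency markers, among them Pou5f1, Nanog, Sox2 and Zfp42, were well above background on every array, as the label of embryonic stem cells calls for. Their summed linear level, in multiples of the 75th percentile, ran from 193 to 211 in SB431542 and from 236 to 242 in DMSO, and Tdgf1 and Utf1 fell while the other 5 did not pass the test. Markers of other cell types were also measured, and the probes for Postn, Elf5, Hand1 and Mixl1 were near background throughout. The summed level of 6 fibroblast markers ran from 1.84 to 2.05 in SB431542 and from 2.22 to 2.38 in DMSO, and that of 3 neuroectoderm markers from 2.20 to 2.35 in SB431542 and from 2.94 to 3.01 in DMSO. Those of 6 primitive endoderm markers (0.957 to 1.09 in SB431542, 0.938 to 0.982 in DMSO), of 5 trophoblast markers (1.05 to 1.13 in SB431542, 1.02 to 1.10 in DMSO) and of 4 mesoderm markers (0.968 to 1.06 in SB431542, 1.01 to 1.07 in DMSO) overlapped between the groups. Most of the trophoblast and mesoderm sums came from Eomes, which is in both lists. Single markers of these lists moved beyond the sums: Gata3 of the trophoblast list rose by 0.97, Pdgfra of the fibroblast and primitive endoderm lists rose by 0.34, Col1a2 of the fibroblast list fell by 1.05, and Nes and Sox1 of the neuroectoderm list fell by 0.60 and 0.30. T of the mesoderm list stood at -7.95, -7.71 and -7.68 in SB431542 and at -5.91, -5.29 and -5.08 in DMSO. Its probe was well above background on 0 SB431542 arrays and 2 DMSO arrays, so T was not tested. The part of these differences in the results below was not tested. In RNA from whole cultures, fewer cells that express a gene and less RNA per cell cannot be told apart.

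Of the 10 genes, 9 passed the filter on dim probes and were tested. Among them Il6st rose, Pim1 and Pim3 fell, and 6 did not pass the test. That is 3 of 9 past a limma adjusted p of 0.05, against 12.5% of all 25898 features tested, of which 5.17% were higher and 7.37% lower. The median log2 change of the 9 genes was -0.18, against 0.02 over all features. The groups did not overlap for 5 of the 9, namely Lifr and Il6st on the higher side and Junb, Pim1 and Pim3 on the lower side, against 35.9% of all features (18.6% higher and 17.3% lower). Changes of at least the size of that of Pim1 were seen in 2.41% of all features. For Il6st and Pim3 the share was 19.2% and 19.3%, so apart from Pim1 the changes were of a size common in these cells. The count past the threshold was 3 of 9 on slide 1 alone, and 1 without DMSO replicate 1 or without DMSO replicate 2. Over all 25898 features, 2926, 1616 and 1456 passed in those fits, against 3247 with all 6 arrays, so calls became fewer over all features as well.

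**Figure D1:**
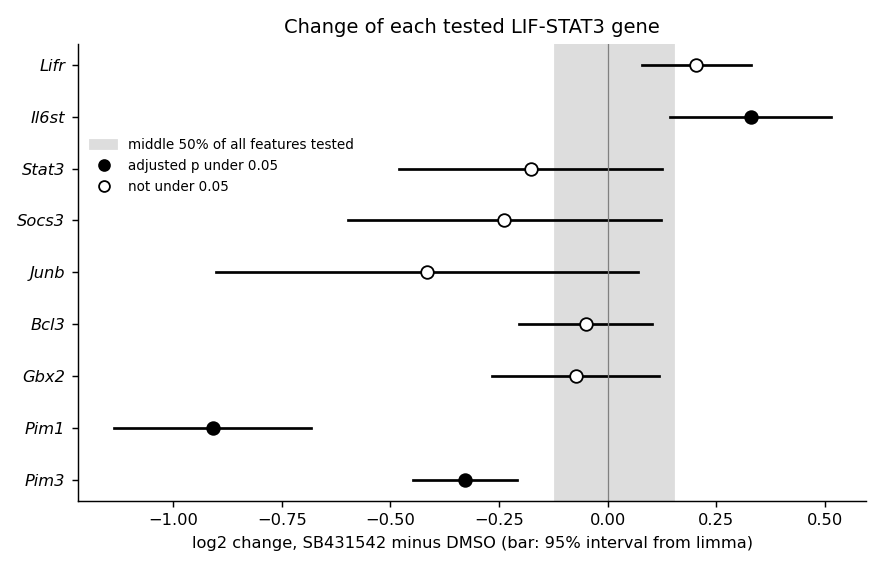
Log2 change (SB431542 minus DMSO, horizontal axis) of the 9 tested LIF-STAT3 genes, with bars for the 95% interval from limma and a grey band for the range between the quartiles of all features tested. Il6st lies above 0 and Pim1 and Pim3 below it with filled points, while the intervals of Stat3, Socs3, Junb, Bcl3 and Gbx2 include 0.

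Of the 2 receptor genes tested, Il6st rose and Lifr did not pass the test. Il6st, which encodes the signalling chain gp130, stood at 2.61, 2.64 and 2.45 in SB431542 and at 2.26, 2.16 and 2.29 in DMSO. Every SB431542 array lay above every DMSO array, with the slide 2 array the lowest of the 3. Il6st rose by 0.33 ± 0.08 on the log2 scale (SE, 3 arrays per group, limma adjusted p = 0.0417), or 1.26-fold. On slide 1 alone the change was 0.39 with a limma adjusted p of 0.0249. The call was lost without DMSO replicate 1, 2 or 3 (limma adjusted p = 0.115, 0.143 and 0.104) and without SB431542 replicate 1 or 2 (0.104 and 0.109).

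Lifr, the chain that binds LIF, was measured by 3 different probes. The brightest, which stands for the gene, gave 3.21, 3.14 and 3.23 in SB431542 and 3.00, 2.97 and 2.99 in DMSO. The groups did not overlap, but the difference, 0.20 ± 0.05, missed the threshold (SE, 3 arrays per group, limma adjusted p = 0.0550, 95% interval 0.08 to 0.33). The second probe for the same transcript gave -0.66, -0.62 and -0.74 in SB431542 and -0.96, -0.85 and -0.86 in DMSO, a difference of 0.21. The probe for a further RefSeq transcript of Lifr gave -0.32, -0.54 and -0.66 in SB431542 and -0.79, -0.66 and -0.68 in DMSO, also a difference of 0.20. The 3 probes thus gave nearly the same difference, and for the last of them the slide 2 array overlapped DMSO. With every probe tested on its own, where 10.8% of 36183 probes changed, the limma adjusted p was 0.0704 for the brightest probe, 0.0940 for the second and 0.266 for the third.

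Osmr encodes the receptor chain for oncostatin M, which also pairs with gp130. Its 1 probe was not well above background on any of the 6 arrays, so it was not tested. Its values were -7.03, -6.72 and -5.84 in SB431542 and -6.99, -5.87 and -6.44 in DMSO, and no direction can be read from them.

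**Figure D2:**
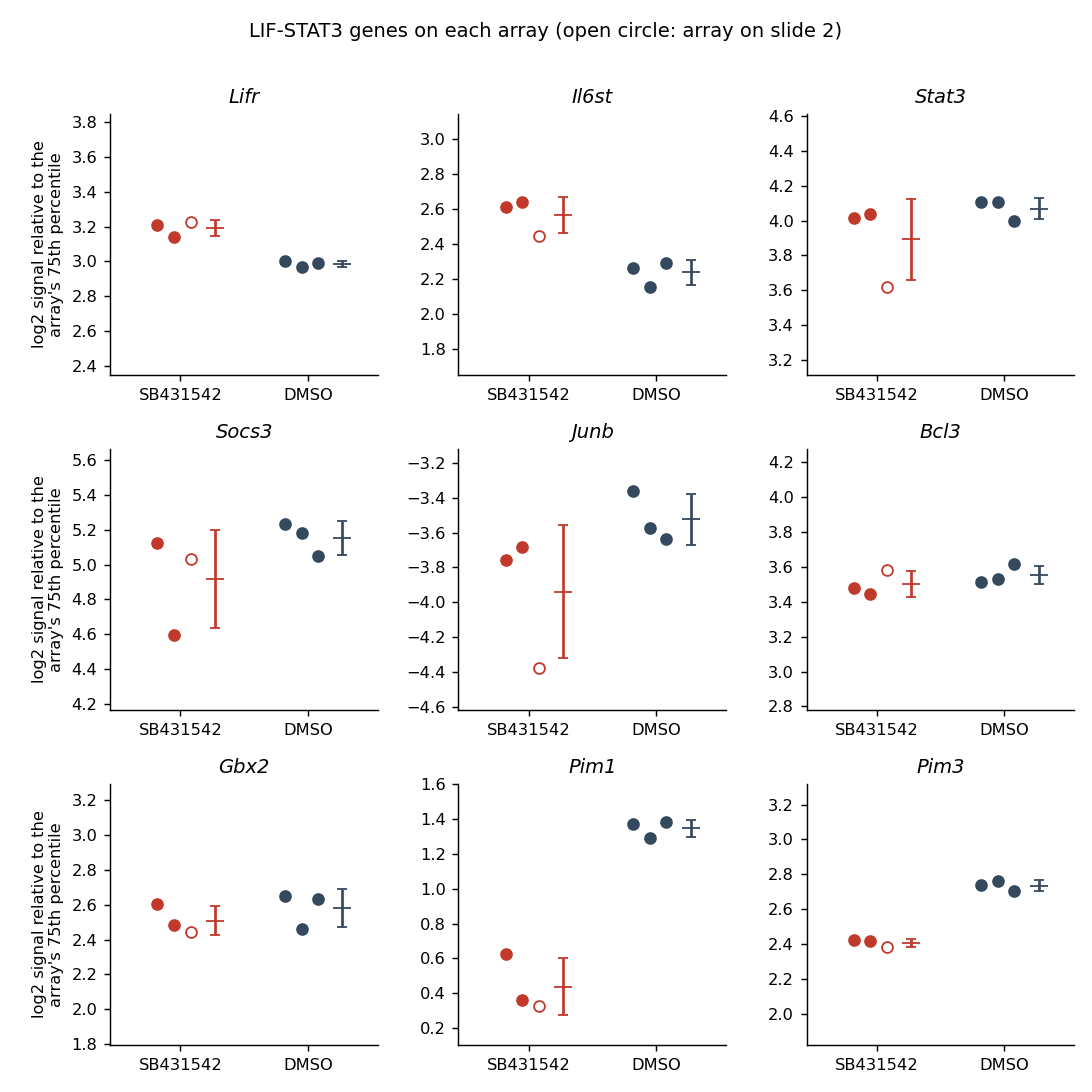
Log2 signal relative to the array's 75th percentile (vertical axis, the same span of 1.5 units in every panel) of 9 genes on the 3 SB431542 arrays (red, left) and the 3 DMSO arrays (dark, right), with the group mean and SD beside the points and an open circle for the array on slide 2. Pim1, Pim3 and, narrowly, Junb separate the groups downwards and Il6st and Lifr upwards. The open circle is the lowest of the 6 points for Stat3, Junb, Gbx2, Pim1 and Pim3.

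Stat3 itself did not pass the test. Its main probe is printed in 10 spots on each array, whose log2 signals had an SD of 0.02 to 0.05 within an array. The probe's mean was 4.02, 4.04 and 3.62 in SB431542 and 4.10, 4.10 and 3.998 in DMSO. SB431542 replicates 1 and 2 lay within the DMSO range, and SB431542 replicate 3 lay below all other arrays. The change was -0.18 ± 0.12 (SE, 3 arrays per group, limma adjusted p = 0.407, 95% interval -0.48 to 0.13). It was -0.04 without SB431542 replicate 3. The second Stat3 probe, for another RefSeq transcript, gave -1.61, -1.64 and -2.26 in SB431542 and -1.45, -1.54 and -1.55 in DMSO. Here too the slide 2 array was lowest, and all SB431542 arrays lay below DMSO. The difference was -0.32 with a limma adjusted p of 0.326 with every probe on its own.

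**Figure D3:**
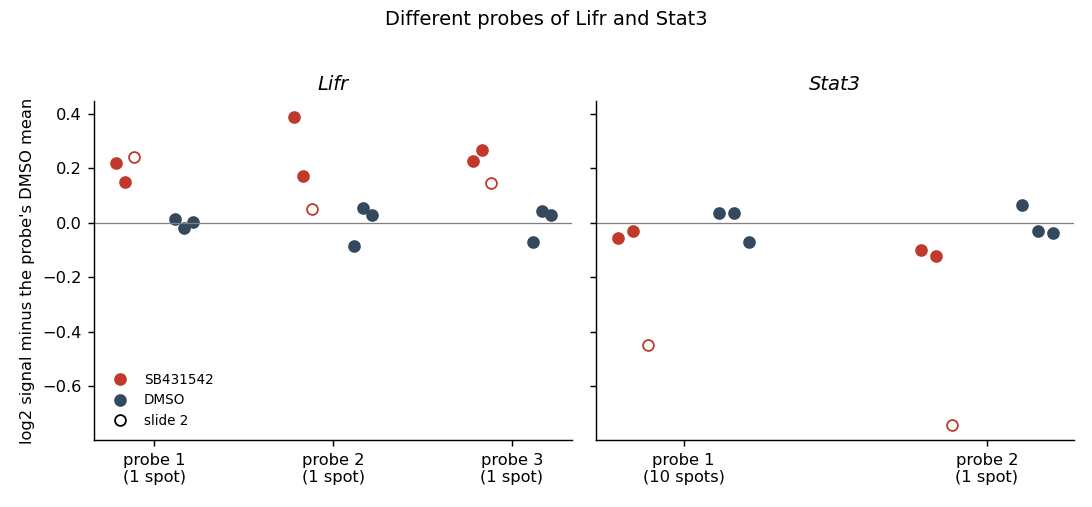
Log2 signal of each probe of Lifr (3 probes, left panel) and Stat3 (2 probes, right panel) minus that probe's DMSO mean (vertical axis), for SB431542 arrays (red) and DMSO arrays (dark), ordered from the brightest probe, with an open circle for the array on slide 2. The Lifr probes moved by 0.20, 0.20 and 0.21, and for both Stat3 probes the slide 2 array is farthest from the DMSO mean.

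Socs3, the feedback inhibitor whose window is shown above with its TTCTTAGAA match, stood at 5.12, 4.60 and 5.03 in SB431542 and at 5.23, 5.18 and 5.05 in DMSO. SB431542 replicate 2 was lower than the rest, and the groups overlapped. The difference, -0.24 ± 0.15, did not pass the test (SE, 3 arrays per group, limma adjusted p = 0.354). Its 95% interval ran from -0.60 to 0.12. Without SB431542 replicate 2 it was -0.08.

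Neither the 2 target genes that encode transcription factors, Junb and Gbx2, nor the cofactor gene Bcl3 passed limma's test (0 of 3 also at an unadjusted p under 0.05). Junb, a subunit of the AP-1 transcription factor, had a dim probe that was well above background on all 6 arrays. It gave -3.76, -3.68 and -4.38 in SB431542 and -3.36, -3.57 and -3.64 in DMSO. The groups did not overlap, but they were separated by less than the spread within SB431542. The change was -0.42 ± 0.20 (SE, 3 arrays per group, limma adjusted p = 0.241, 95% interval -0.90 to 0.07), and -0.20 without SB431542 replicate 3, the array on slide 2. With normexp background correction it was -0.15.

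Bcl3, a nuclear cofactor of NF-kappaB of the I-kappaB family, had values of 3.48, 3.44 and 3.59 in SB431542 and of 3.51, 3.53 and 3.62 in DMSO. The groups overlapped, and the difference was -0.05 ± 0.06 (SE, 3 arrays per group, limma adjusted p = 0.642). The 95% interval of -0.20 to 0.10 leaves room for small changes only. Gbx2, a homeobox gene that helps to maintain mouse embryonic stem cells downstream of STAT3, had values of 2.60, 2.48 and 2.44 in SB431542 and of 2.65, 2.46 and 2.64 in DMSO. These overlapped as well, and the difference was -0.07 ± 0.08 (SE, 3 arrays per group, limma adjusted p = 0.589, 95% interval -0.27 to 0.12).

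Both PIM kinase genes fell. These encode serine/threonine kinases that promote survival and growth. Pim1 stood at 0.63, 0.36 and 0.33 in SB431542 and at 1.37, 1.29 and 1.38 in DMSO. The gap between the groups was larger than the spread within either. Pim1 fell by 0.91 on the log2 scale (SE 0.09, 3 arrays per group, limma adjusted p = 0.00337), or 1.88-fold. It was -0.85 on slide 1 alone, and its call held in each fit that left out 1 array, with a limma adjusted p of 0.00345 to 0.0220.

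Pim3 stood at 2.42, 2.41 and 2.38 in SB431542 and at 2.74, 2.76 and 2.70 in DMSO. These arrays agreed closely within each group, with an SD of 0.02 in SB431542 and 0.03 in DMSO. Pim3 fell by 0.33 on the log2 scale (SE 0.05, 3 arrays per group, limma adjusted p = 0.0108), or 1.26-fold. Without DMSO replicate 1 or 2 the limma adjusted p was 0.0523 and 0.0601. The third family member, Pim2, is in the list of other pathway genes and changed by -0.05 ± 0.06 (limma adjusted p = 0.639).

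The genes whose pattern over the 6 arrays was most like that of Pim1 were Zscan4c, Zscan4a and Lrrfip1. Their centred log2 values differed from those of Pim1 by a root mean square of 0.05, 0.06 and 0.06, and their log2 changes were -0.87, -0.87 and -0.91. As the genes were picked for the smallest such difference, log2 changes close to that of Pim1 follow from the choice. Zscan4c and Zscan4a are members of a multigene family so alike in sequence that each probe may also read the other's transcript.

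**Figure D4:**
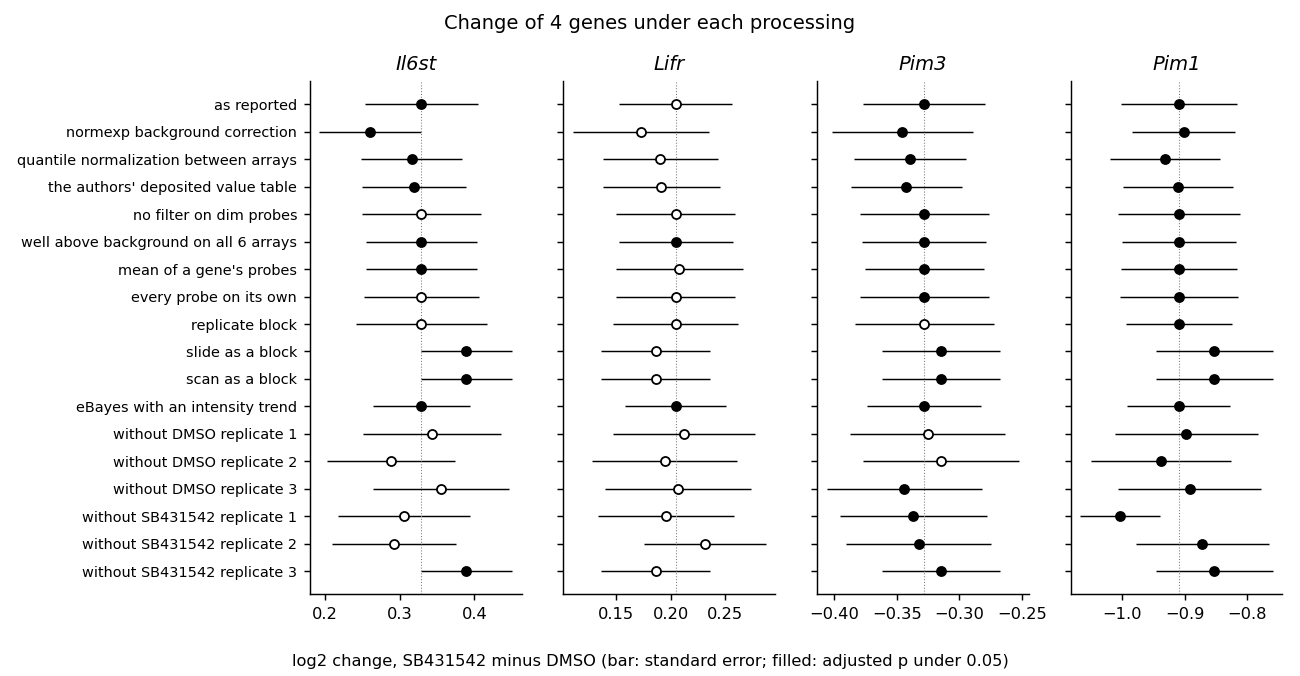
Log2 change (SB431542 minus DMSO, horizontal axes, each panel with its own range) of Il6st, Lifr, Pim3 and Pim1 as reported and under each alternative processing (rows), with bars for the standard error and filled points for a limma adjusted p under 0.05. Pim1 has filled points in every row, while Il6st, Lifr and Pim3 each lie on both sides of the threshold, depending on the row.

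A further 57 genes of the pathway, all on the array, were grouped by role, and 56 of them were tested. Of these, 6 rose and 7 fell, or 23.2%, against 12.5% of all features, and their median log2 change was 0.00. On slide 1 alone 8 rose and 7 fell. Without DMSO replicate 1 it was 1 that rose and 7 that fell, without DMSO replicate 2 it was 1 and 6, and without DMSO replicate 3 it was 3 and 6. In this list the number that rose thus moved more than the number that fell. Over all features, the number higher went from 1338 to 592, 535 and 584 in these fits. The number lower went from 1909 to 1024, 921 and 967. On slide 1 alone, 1244 features were higher and 1682 lower. This list holds genes whose changes in these data were known when it was drawn up. At an unadjusted limma p under 0.05, 27 of the 56 passed, among them 14 of 18 LIF-responsive genes, 7 of 14 other inhibitors and 3 of 6 other STAT genes. Of the 9 genes above, 4 passed at that threshold. The share of all features at an unadjusted p under 0.05 was not counted, so unadjusted counts here have no background to be read against.

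None of the 6 cytokine genes tested passed limma's test (0 of 6 also at an unadjusted p under 0.05). Lif itself, whose probe exceeded background on only 2 of 3 arrays in each group, gave -6.43, -4.94 and -5.01 in SB431542 and -5.35, -5.91 and -5.10 in DMSO. The Il6 probe did not exceed background on the 6 arrays. None of the 4 other receptor subunit genes passed limma's test (1 of 4 at an unadjusted p under 0.05, Cntfr). Cntfr changed by -1.13 ± 0.37 (limma adjusted p = 0.109). It gave -1.29, -1.45 and -2.58 in SB431542, with the slide 2 array the lowest, and -0.33, -0.67 and -0.95 in DMSO. Of the 4 Janus kinase genes 1 rose, or 25%, against 12.5% of all features. This was Jak3, which rose by 0.36 ± 0.06 (SE, 3 arrays per group, limma adjusted p = 0.0149). Its second probe differed by 0.27 and missed the threshold with every probe on its own (limma adjusted p = 0.171). Jak1, the main kinase of gp130, gave 2.06, 2.17 and 2.01 in SB431542 and 2.00, 1.86 and 2.03 in DMSO. These overlapped, with a change of 0.11 ± 0.07 (limma adjusted p = 0.386).

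Of the 6 other STAT genes 1 fell, or 16.7%, which is near the 12.5% of all features. This was Stat4, which fell by 0.37 on the log2 scale (SE 0.05, limma adjusted p = 0.00993). Among 14 other inhibitors, 2 rose and 1 fell, or 21.4%, against 12.5% of all features. Ptpn6, which encodes the phosphatase SHP-1, rose by 0.45 ± 0.05 (limma adjusted p = 0.00413), Socs2 rose by 0.29 ± 0.05 (limma adjusted p = 0.0179), and Pias2, a SUMO ligase gene, fell by 0.44. The other 2 Socs2 probes differed by 0.28 and 0.16, in the same direction. With every probe on its own, both missed the threshold (limma adjusted p = 0.0661 and 0.181). None of the 4 adaptor genes passed limma's test (1 of 4 at an unadjusted p under 0.05, Sos1, with a change of 0.21). Ptpn11, which links gp130 to ERK signalling, changed by -0.01 ± 0.07 (limma adjusted p = 0.969).

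Of 18 other LIF-responsive genes, 3 rose and 5 fell, or 44.4%, against 12.5% of all features. As the list was drawn up with changes in these data known, this share is a description only. Tfcp2l1, a transcription factor gene that STAT3 activates in mouse embryonic stem cells, stood at 3.31, 3.39 and 3.54 in SB431542 and at 2.99, 2.94 and 3.02 in DMSO. All SB431542 arrays were higher, and the rise was 0.43 ± 0.07 (SE, 3 arrays per group, limma adjusted p = 0.0171), with 0.47 for its second probe. Pramel7 rose by 0.75 ± 0.14. With normexp background correction the change of Pramel7 was 0.27 (limma adjusted p = 0.0437). On the other side, Mcl1, a survival gene of the BCL2 family, stood at 6.01, 5.97 and 5.89 in SB431542 and at 6.38, 6.50 and 6.40 in DMSO. It fell by 0.47 on the log2 scale (SE 0.06, limma adjusted p = 0.00721), with -0.62 for its second probe. Irf1, an interferon regulatory factor gene, fell by 0.71 (SE 0.05, limma adjusted p = 0.00121). Myc, Tbx3 and Fos were the other 3 that fell, with log2 changes of -1.04, -0.68 and -0.63. With normexp background correction Fos changed by -0.35 and kept its call (limma adjusted p = 0.00299). Klf4 and Klf5, Krüppel-like factor genes, changed by -0.16 ± 0.06 and -0.32 ± 0.10, and neither passed.

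Several of these calls were lost when an array was left out. Without DMSO replicate 1, 2 or 3 the limma adjusted p of Tfcp2l1 was 0.0679, 0.0779 and 0.0618, that of Socs2 was 0.0744, 0.0848 and 0.0735, and that of Jak3 was 0.0622, 0.0663 and 0.0698. In the same fits the log2 change ran from 0.41 to 0.45 for Tfcp2l1, from 0.28 to 0.30 for Socs2 and from 0.36 to 0.37 for Jak3. Tfcp2l1 also missed the threshold without SB431542 replicate 2 (0.0512). Stat4 missed it without DMSO replicate 2 or 3 (0.0540 and 0.0528). Pramel7 missed it without DMSO replicate 1 or 2 (0.0684 and 0.0881) and without SB431542 replicate 1 or 2 (0.0669 and 0.0696). Myc, Tbx3, Fos, Irf1, Mcl1, Ptpn6 and Pias2 stayed past the threshold in every fit that left out 1 array.

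**Figure D5:**
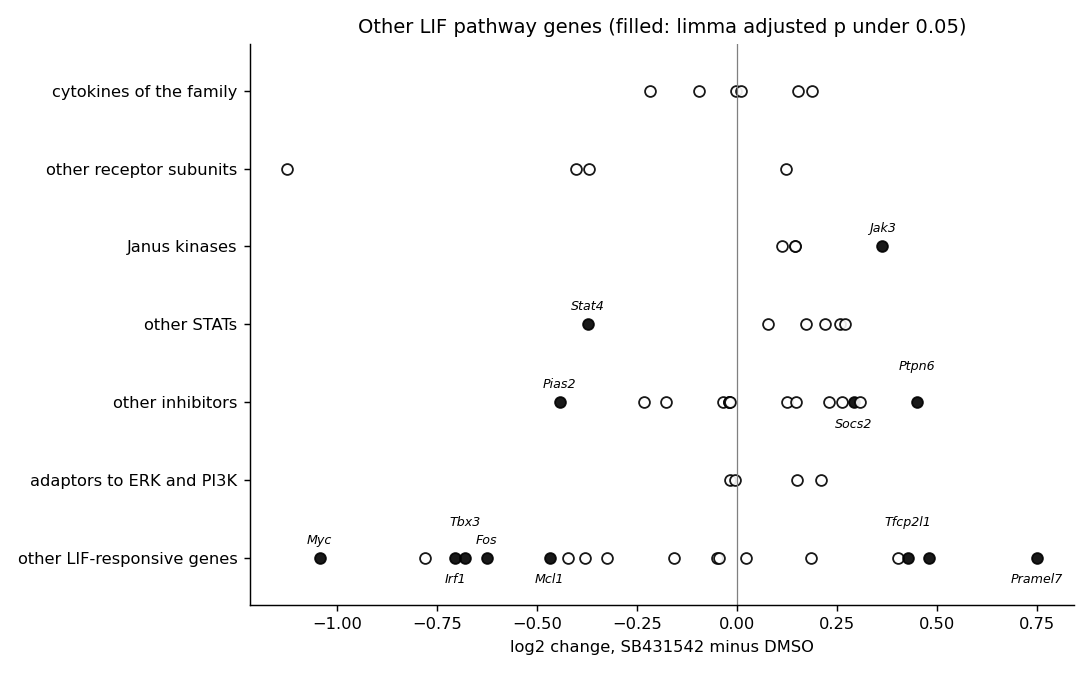
Log2 change (SB431542 minus DMSO, horizontal axis) of 56 other LIF pathway genes by role (rows), each point 1 gene, filled where the limma adjusted p was under 0.05, with names beside the filled points described in the text. The cytokine, receptor and adaptor rows have no filled point, and the row of LIF-responsive genes has 3 on the higher and 5 on the lower side.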

How the data were processed

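RNA of 6 samples was measured on 1-colour Agilent arrays, 3 per group, grouped by sample title. The titles, descriptions, source names and treatment tags agree on the groups, whereas the treatment protocol, the same text for all 6 samples, names SB431542 for the DMSO samples too. The labels do not state whether replicates came from different cultures. If they did not, the p-values reflect technical spread alone. Precision is limited by the number of arrays. The deposited intensity values were background-subtracted and detrended within each array by Agilent Feature Extraction, per the file headers (version 10.7 in the submitters' processing notes). Each flag for spots above background, saturated or outlying is a score of 0 or 1, per the file headers. A table of log2 values deposited by the authors, with a normalization not given in the sources used here, served as an alternative. Its columns had equal medians of 5.18, equal upper quartiles of 8.90 and lower quartiles that all round to 1.99.

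Outlier spots were left out, which removed 81 of 55681 probes, and the spots of a probe were averaged as log2 values. Each array's 75th percentile over probes (452 to 564 in linear signal) was subtracted, and a probe was kept where at least 3 of 6 arrays exceeded background (36183 probes). Accessions were matched without version to RefSeq genes of GRCm38.p6, which named 27235 probes, and 13 more carried a symbol. The array grid uses mm9, so no gene coordinates were taken. The brightest probe stood for each gene, giving 25898 features. Limma 3.58.1 in R 4.3.3 was fitted over all of them, two-sided, with Benjamini-Hochberg adjustment and a threshold of 0.05. Values after ± are this fit's standard errors. Genes past the threshold are said to rise or fall. On simulated data with 25898 features, 100 were changed by 0.5 and 100 by 1 on the log2 scale. The fit recovered 31% and 71% of them. In the data 12.5% of features passed, a larger share than was changed in the simulation. The adjustment is stricter where fewer features change, so 31% and 71% do not give the sensitivity of the reported fit. The genes, lists and tests were chosen with earlier results of these data known. All 10 genes are described. Of the other 57 pathway genes, those past the threshold and a few central ones, Jak1, Ptpn11 and Lif among them, were to be named by rule, of which 2 are not reported here, and Il6, Pim2, Klf4, Klf5, Cntfr and Sos1 were named after their values were seen. For the member with the largest change, the 3 most similar genes were named.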

Additional observations from a re-analysis of the deposited data

How the results depend on the processing

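The direction of each of the 9 tested genes was the same under all 17 alternatives, and Pim1 stayed past the threshold in each, with log2 changes from -1.003 to -0.853. Several of the 17 could show nothing on direction. The other filters on dim probes, every probe on its own, the replicate block and the intensity trend left the log2 changes of these genes as reported. So did the mean of a gene's probes for genes with 1 probe. Keeping all dim probes, and so testing 37033 features, 2092 features changed against 3247, and Il6st (0.33) had a limma adjusted p of 0.0854. With every probe on its own it was 0.0505. Lifr (0.20) passed the threshold among probes well above background on all 6 arrays (0.0492) and with an intensity trend in eBayes (0.0170). At an adjusted p under 0.01, 1222 features, 1 of the 9 genes and 8 other pathway genes changed. With the replicate number as a block, 1565 features, 1 of the 9 genes and 8 other pathway genes changed, and Il6st (0.33) and Pim3 (-0.33) had a limma adjusted p of 0.123 and 0.0596. Deviations of same-numbered arrays correlated at 0.00, 0.07 and -0.06. Of the SB431542 arrays, 1 of 3 correlated best with its own number. With 3 arrays per group and SB431542 replicate 3 alone on slide 2, these values cannot exclude that equal numbers mark pairs. Leaving out single arrays leaves fewer samples and gave 1456 to 2926 changed features (1616, 1456 and 1551 when DMSO replicate 1, 2 or 3 was dropped, 2161 when SB431542 replicate 2 was), 1 to 3 of the 9 genes and 7 to 15 other pathway genes. In those fits Il6st ran from 0.29 to 0.39 and Pim3 from -0.34 to -0.31. The files hold no mean spot signal, so normexp was run on the median signal. Slide and scan give the fit without SB431542 replicate 3. Osmr, Lif and Il6 are limited by signal near background.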
